A study of Mus musculus with 6 samples.

Results

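The 10 genes described here are 5 genes of tuft cells (Pou2f3, Dclk1, Gnb3, Plcb2 and Trpm5) and 5 genes of eicosanoid synthesis (Alox5, Alox5ap, Ltc4s, Ptgs1 and Ptgs2). They were taken by symbol from a count table of 24054 genes, and all 10 were found and passed the filter on low counts. Whole thymus was sequenced as mRNA, with 3 libraries of the control genotype and 3 of the genotype K5-rtTA:TetO-RANKL. In the second genotype the keratin 5 promoter, active in basal and medullary epithelium, drives a doxycycline-dependent activator that switches on the cytokine RANKL. Both groups were given doxycycline in food and water, and the controls were monogenic, with the single transgene not named. One label gives treatment from 9 weeks of age for 2 weeks, and the series text gives 8 weeks of age and 1 week, so the schedule is uncertain. The sources used here do not say whether each library is a separate mouse. P-values therefore measure the spread between these libraries.

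Tuft cells are rare chemosensory epithelial cells of mucosal surfaces, and the thymic medulla holds a related population. They use the signalling chain of taste cells, in which a receptor frees G protein beta and gamma subunits, phospholipase C beta 2 releases calcium and the channel TRPM5 depolarises the cell. They also make eicosanoids, lipid mediators made from arachidonic acid. 5-lipoxygenase with its activating protein leads to leukotrienes, and the cyclooxygenases lead to prostaglandins and thromboxane. Mast cells, granulocytes, macrophages and platelets use the same enzymes, so in whole tissue these transcripts are not specific to tuft cells.

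Of the 10 transcripts, 7 rose and 1 fell in RANKL thymus, and Trpm5 and Gnb3 did not pass the threshold (edgeR, adjusted p under 0.05 over 16096 genes). Across all tested genes 33.8% were called higher and 29.6% lower, 63.4% in either direction, so a call by itself sets a gene little apart here. The 3 RANKL libraries lay above the 3 control libraries for 9 members and below them for Plcb2. Over all tested genes 36.1% lay wholly above and 34.1% wholly below, 70.1% in all. The median log2 fold change of the members was 1.98, and that of all tested genes was -0.02. Ptgs2 changed the most, with a 24.2-fold rise.

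The libraries held 18254870 to 25357060 counted reads, and a floor of 3 reads corresponded to 0.122 to 0.161 CPM (counts scaled to the TMM-adjusted library total; counting error only). Tnfsf11, which encodes RANKL, stood at 6.01 to 8.89 CPM in controls and 2390 to 4812 CPM in RANKL libraries, as labelled. Summed transcripts of 10 double-positive thymocyte genes were 9264 to 10286 CPM in controls and 208 to 899 CPM in RANKL libraries. Summed transcripts of 8 epithelial genes were 1425 to 1730 CPM and 5742 to 7303 CPM. In such bulk tissue a change in the number of cells of a type and a change in RNA per cell cannot be told apart.

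**Figure D1:**
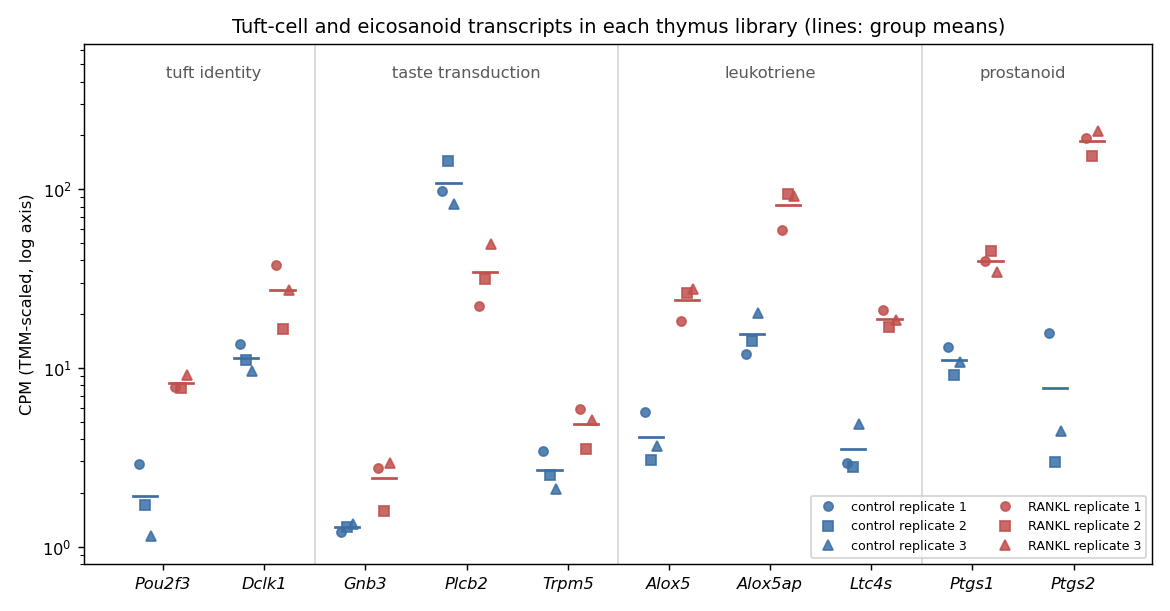
Scaled counts (CPM, log axis) of the 10 members in each library, grouped by role; symbols mark replicates and lines mark group means. RANKL libraries lie above controls for 9 genes and below them for Plcb2, and control replicate 1 stands highest among controls for Ptgs2, at 15.8 CPM.

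Pou2f3, the transcription factor that specifies tuft cells and is also made by stratifying keratinocytes (chromosome 9, 43123927 to 43205755 in GRCm38), had 2.90, 1.70 and 1.15 CPM in control replicates 1, 2 and 3. In RANKL replicates 1, 2 and 3 it had 7.86, 7.73 and 9.10 CPM. The RANKL values lay close together, well above the highest control. The log2 fold change was 2.10 ± 0.37 (SE, n = 3 per group; edgeR adjusted p = 0.000821). Keratinocyte transcripts moved the same way, with 6 cornification genes summing to 29.1 to 52.5 CPM in controls and 732 to 1419 CPM in RANKL libraries. Their part in the Pou2f3 result was not tested.

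Dclk1, a microtubule-associated kinase used as a tuft marker and also made by neurons and some mesenchymal cells (chromosome 3, 55242303 to 55539068), had 13.5, 11.1 and 9.56 CPM in controls. It had 37.8, 16.6 and 27.4 CPM in RANKL libraries, a wider spread, with replicate 2 near the control range. Its log2 fold change was 1.26 ± 0.30 (edgeR adjusted p = 0.00466). Sums of 6 fibroblast genes were 238 to 369 CPM in controls and 3725 to 7486 CPM in RANKL libraries. The 3 collagen genes, which dominate that sum, were highest in RANKL replicate 2. Lum and Dpt, the latter not called, were lowest in that replicate, as was Dclk1, whereas Pdgfra was lowest in replicate 3. Of 5 tested neuronal markers 2 rose, 1 fell and 2 were not called. The part of these cells in the Dclk1 result was not tested.

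The 3 members of the taste transduction chain differed. Gnb3, the G protein beta subunit of taste cells (chromosome 6, 124834240 to 124840275), had 1.21, 1.29 and 1.34 CPM in controls and 2.75, 1.59 and 2.92 CPM in RANKL libraries. These values rest on 23 to 62 reads per library, and the groups did not overlap. Its log2 fold change was 0.91 (95% interval 0.06 to 1.76; edgeR adjusted p = 0.0591, unadjusted 0.0384). The call was made without RANKL replicate 2, at 1.15 (adjusted p = 0.0261), and under 2 other alternatives, with adjusted p from 0.0261 to 0.186 over all of them.

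Trpm5, the cation channel at the end of the chain (chromosome 7, 143071529 to 143094642), had 3.43, 2.53 and 2.10 CPM in controls and 5.87, 3.54 and 5.14 CPM in RANKL libraries, from 44 to 109 reads. The lowest RANKL value stood just above the highest control value. Its log2 fold change was 0.85 (95% interval 0.09 to 1.61; edgeR adjusted p = 0.0511, unadjusted 0.0324). It was called without control replicate 1 (1.04, adjusted p = 0.0405) or RANKL replicate 2 (1.05, adjusted p = 0.0248), and under 6 other alternatives, with adjusted p from 0.0248 to 0.185 over all of them. The exons of Trpm5 share 220 bases with those of Tssc4 on the opposite strand, whose mean was 44.5 CPM in controls and 31.9 CPM in RANKL libraries. The sources used here do not state whether counting used strand, and without strand reads within those shared bases cannot be told apart.

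Plcb2, the phospholipase of the chain and also a phospholipase of white blood cells (chromosome 2, 118705003 to 118728661), was the member that fell. It had 97.8, 144.1 and 82.9 CPM in controls and 22.1, 31.5 and 49.4 CPM in RANKL libraries. The highest RANKL library stayed well under the lowest control. The log2 fold change was -1.66 ± 0.31 (edgeR adjusted p = 0.00113). Plcb2 and the thymocyte sum kept the same order among RANKL libraries, lowest in replicate 1 (208 CPM for the sum), then replicate 2 (444 CPM), and highest in replicate 3 (899 CPM). In controls the orders differed, since Plcb2 was highest in replicate 2, where the thymocyte sum was lowest. Of 6 tested B cell genes 0 passed edgeR's threshold and 1, Ms4a1, had an unadjusted p under 0.05 (0.0403), with sums of 119 to 129 CPM in controls and 53.7 to 133 CPM in RANKL libraries. The part of either cell type in the Plcb2 result was not tested.

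The tuft marker list shows how far Plcb2 weighs on a sum. Over 11 listed tuft genes the sum was 101 to 166 CPM in controls and 79.2 to 118 CPM in RANKL libraries, and Plcb2 alone made up 82.2% of it in controls on average and 34.0% in RANKL libraries. Without Plcb2, a choice made after its values were seen, the other 10 genes summed to 27.6, 21.6 and 18.5 CPM in controls and to 86.7, 47.7 and 68.5 CPM in RANKL libraries.

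**Figure D2:**
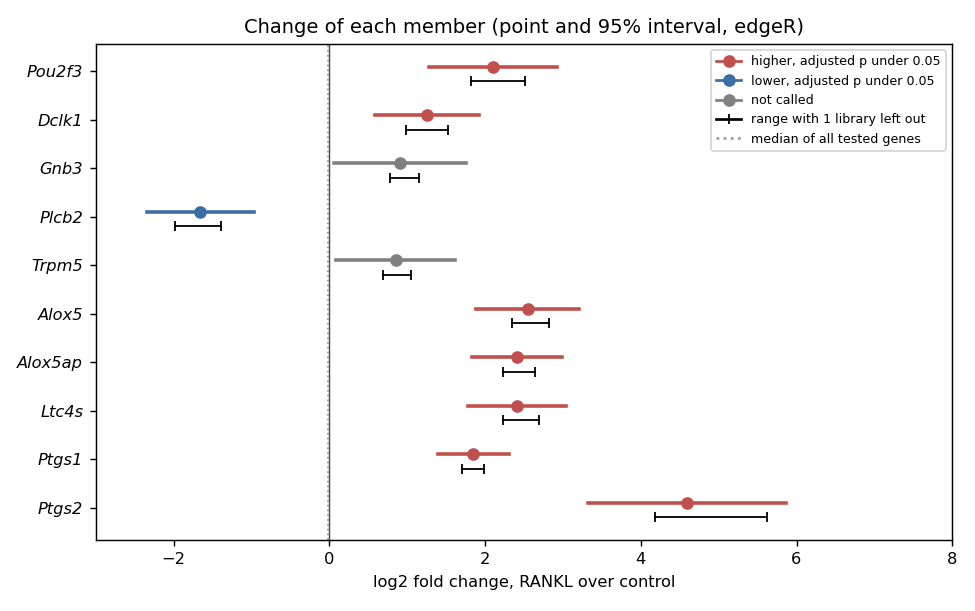
Log2 fold change of each member, RANKL over control, with its 95% interval from edgeR (coloured) and the range with 1 library left out (black). Plcb2 is the only member on the negative side, Gnb3 and Trpm5 lie close to the threshold, and Ptgs2 stands apart at 4.60.

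The other tuft genes of the list also moved in both directions. Of 30 listed, 28 were in the table and 23 were tested. Of these 13 were higher, 4 lower and 6 not called, beside 33.8% higher and 29.6% lower over all tested genes. Their median log2 fold change was 0.86. Gng13, the G protein gamma subunit that pairs with Gnb3 in taste cells, had 0.316, 0.876 and 1.10 CPM in controls and 7.43, 2.72 and 4.15 CPM in RANKL libraries, and rose by 2.62 ± 0.54 on the log2 scale (edgeR adjusted p = 0.00211). Gnat3, the taste G protein alpha subunit gustducin, rose by 1.38 ± 0.48 from 6 to 16 reads per control library (adjusted p = 0.0305). Leaving out control replicate 2, control replicate 3 or RANKL replicate 1 ended that call (adjusted p 0.0837 to 0.105), as did a term for the number range in the sample titles.

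Avil, the actin-bundling protein advillin, rose by 2.00 ± 0.31 and Gfi1b, a transcriptional repressor of tuft cells and of the megakaryocyte and erythroid lineages, by 3.82 ± 0.51. Kctd12 rose by 1.95 ± 0.21. Gm684 and 1810046K07Rik, which encode coactivators of Pou2f3 and were picked out after their values were seen, rose by 1.98 ± 0.35 and 2.06 ± 0.47. Among RANKL libraries replicate 2 was lowest for Pou2f3, Dclk1, Gnb3, Trpm5, Gng13, Avil and Gfi1b. For Pou2f3 the margin was small (7.73 CPM against 7.86 CPM in replicate 1). Other tuft genes differed, as Gnat3 was lowest in replicate 3, and Kctd12, Hpgds, L1cam, Bmx and Cbr3 were highest in replicate 2.

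The 4 listed genes that fell were Lrmp (-2.95 ± 0.31), Il17rb (-2.68 ± 0.36), Fyb (-1.91 ± 0.24) and Vav1 (-1.31 ± 0.19). Fyb and Vav1 also act in T cell receptor signalling, and Il17rb is a receptor subunit for interleukin 25. Bmx, Cbr3, Sh2d7, Sucnr1, Pou2af1 and Rgs13 were not called, at values from -0.18 for Cbr3 to 0.68 for Bmx. Il25, the cytokine that tuft cells release, had 0, 2 and 2 reads in controls and 3, 3 and 6 reads in RANKL libraries and was not tested. Its reads were too few to pass the filter on low counts, so a difference in Il25 was neither shown nor excluded.

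Bitter receptors were at the limit of detection. Of 10 bitter receptor genes of the Tas2r family, no library held more than 3 reads of any, with 7 reads over the control group and 27 over the RANKL group. Tas1r3, the shared subunit of sweet and umami receptors, had 1.63, 1.70 and 1.19 CPM in controls and 2.21, 1.10 and 1.08 CPM in RANKL libraries, and the groups overlapped (log2 fold change -0.05 ± 0.42). Trpm4, a channel related to Trpm5 and also used by taste cells, rose by 1.65 ± 0.26.

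Tuft genes were also set against epithelial transcripts within each library, as log2 ratios of CPM plus 0.1. Transcripts of 7 medullary epithelial genes, all called higher, summed to 58.3 to 86.9 CPM in controls and 874 to 1054 CPM in RANKL libraries. Their part in the tuft gene results was not tested. Epcam, an adhesion molecule of epithelium, had 46.8, 47.7 and 45.6 CPM in controls and 566, 519 and 496 CPM in RANKL libraries. The Trpm5 to Epcam ratio was -4.10 ± 0.33 in controls and -6.76 ± 0.34 in RANKL libraries (mean ± SD, n = 3), a difference of -2.67 (exact permutation test, two-sided p = 0.1, the smallest that 3 against 3 allows). Differences over Epcam were -2.67 for Gnb3, -2.31 for Dclk1, -1.35 for Pou2f3 and -5.18 for Plcb2, each with an exact permutation p of 0.1. All 5 ratios were thus lower in every RANKL library than in any control library.

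The direction depended on the epithelial gene. Over Cdh1, the epithelial cadherin, which rose by 3.18 ± 0.24, the 5 differences were also negative, from -1.05 for Pou2f3 to -4.88 for Plcb2. Krt8, a keratin of simple epithelium, rose only by 0.52 ± 0.20 (edgeR adjusted p = 0.0439), a call that ended on leaving out control replicate 2 or 3 or RANKL replicate 1 or 3 (0.0593 to 0.159). Over Krt8 the differences were 1.62 for Pou2f3, 0.67 for Dclk1, 0.31 for Trpm5 and 0.31 for Gnb3, and -2.21 for Plcb2. The exact permutation p was 0.1 for Pou2f3, Dclk1 and Plcb2, 0.2 for Trpm5 and 0.3 for Gnb3.

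**Figure D3:**
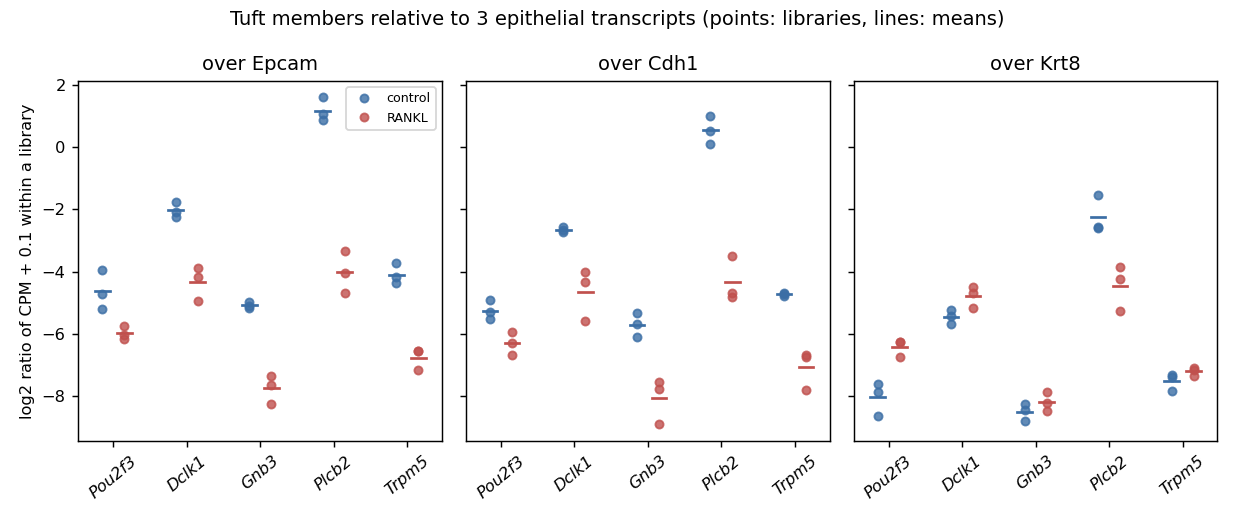
Log2 ratio of each tuft member to Epcam, Cdh1 or Krt8 within each library (points) with group means (lines). Ratios to Epcam and Cdh1 are lower in all 3 RANKL libraries for all 5 genes, whereas over Krt8 the means of 4 genes are higher and that of Plcb2 is lower.

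All 3 leukotriene members rose to a similar extent. Alox5, the 5-lipoxygenase that oxygenates arachidonic acid (chromosome 6, 116410071 to 116461178), had 5.64, 3.04 and 3.68 CPM in controls and 18.4, 26.2 and 27.7 CPM in RANKL libraries, a log2 fold change of 2.55 ± 0.29 (edgeR adjusted p = 7.25e-05). Alox5ap, the membrane protein that presents arachidonic acid to Alox5 (chromosome 5, 149265004 to 149288153), had 11.9, 14.1 and 20.2 CPM in controls and 59.4, 94.5 and 92.2 CPM in RANKL libraries. It changed by 2.41 ± 0.26 (adjusted p = 4.56e-05). RANKL replicate 1 was the lowest RANKL library for both.

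Ltc4s, the synthase that joins glutathione to leukotriene A4 (chromosome 11, 50236461 to 50238532), had 2.95, 2.78 and 4.87 CPM in controls and 21.1, 16.9 and 18.5 CPM in RANKL libraries. Its log2 fold change was 2.41 ± 0.28 (edgeR adjusted p = 7.71e-05), and here replicate 1 was the highest RANKL library. GENCODE M21 annotates antisense genes over 268 exonic bases of Ltc4s and 189 of Alox5ap, for which the table had no row. Other opposite-strand genes, likewise without counts, shared 148 exonic bases with Ptgs1, and 87 and 27 with Dclk1.

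Markers of the white blood cells that make leukotrienes rose as well. Sums were 15.8 to 44.4 CPM in controls and 1905 to 4484 CPM in RANKL libraries for 7 neutrophil genes, and 591 to 817 CPM and 1805 to 2424 CPM for 8 macrophage genes. They were 38.1 to 58.2 CPM and 221 to 278 CPM for 9 mast cell genes, and 5.82 to 9.37 CPM and 60.3 to 105 CPM for 5 eosinophil genes, and basophil genes were below 1 CPM in controls and 3.86 to 6.03 CPM in RANKL libraries. In RANKL libraries S100a9 and S100a8 made up most of the neutrophil sum. S100a9 had 990, 2377 and 1164 CPM there, and S100a8 had 698, 1347 and 685 CPM. Log2 fold changes in the neutrophil list ran from 2.38 for Ngp to 7.78 for Cxcr2. Hdc made up most of the mast cell sum in RANKL libraries, at 123, 190 and 182 CPM. Changes in the mast cell list ran from 0.63 for Kit to 5.08 for Tpsab1. All tested genes of the neutrophil, macrophage, mast cell and eosinophil lists were called higher, and the eosinophil ribonuclease gene Ear6 had 0 reads in all 3 controls. The part of these cells in the Alox5, Alox5ap and Ltc4s results was not tested.

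Enzymes on either side of the leukotriene members split. Of 24 listed leukotriene and lipoxygenase genes 22 were tested. Among them 19 were higher, 2 were lower and Mgst3 was not called, at a median of 2.69. The shares over all tested genes were 33.8% higher and 29.6% lower. Pla2g4a, the cytosolic phospholipase that frees arachidonic acid, had 13.1, 14.5 and 14.9 CPM in controls and 78.9, 74.4 and 87.0 CPM in RANKL libraries, with little spread within either group (2.50 ± 0.16, edgeR adjusted p = 5.48e-06). Lta4h, which turns leukotriene A4 into leukotriene B4 and so competes with Ltc4s for its substrate, had 206, 166 and 182 CPM in controls and 71.3, 83.0 and 91.0 CPM in RANKL libraries. It fell by 1.18 ± 0.16 on the log2 scale (adjusted p = 0.000217). Mgst2, a microsomal enzyme that can also conjugate leukotriene A4, fell by 2.76 ± 0.46.

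Genes that trim or clear leukotrienes rose. Dpep2, a dipeptidase that converts leukotriene D4 to leukotriene E4, rose by 3.75 ± 0.30 and Ggt5, which acts on leukotriene C4, by 1.74 ± 0.16. Cyp4f18, a cytochrome that inactivates leukotriene B4, rose by 5.31 ± 0.36. The leukotriene B4 receptors Ltb4r1 and Ltb4r2 rose by 4.57 ± 0.46 and 3.12 ± 0.32, and the cysteinyl leukotriene receptors Cysltr1 and Cysltr2 by 2.47 ± 0.42 and 1.12 ± 0.34. The Cysltr2 call was lost without control replicate 3 (edgeR adjusted p = 0.069) or RANKL replicate 1 (0.0528). Oxgr1, a receptor for leukotriene E4, was too low to test.

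Relatives of Alox5 rose by more than Alox5 itself in point value. Alox8 rose by 5.60 ± 0.39, Alox15 by 3.61 ± 0.38 and Alox12 by 3.35 ± 0.36, although the difference between these and Alox5 was not tested. Alox8 is a skin enzyme, and Alox15 is made by macrophages and eosinophils. Among 18 listed paralogues of the members 9 were higher, 3 lower and 6 not called. Over all tested genes 33.8% were higher and 29.6% lower. The 3 paralogues that fell were Dclk2, a paralogue of Dclk1, by 3.18 ± 0.43, Mgst2, and Pou2f1, a widely expressed relative of Pou2f3, by 1.21 ± 0.27.

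Both cyclooxygenases rose, by unequal amounts. Ptgs1, the constitutive enzyme found in platelets, tuft cells and many tissues (chromosome 2, 36216742 to 36258593), had 13.1, 9.17 and 10.8 CPM in controls and 39.7, 45.3 and 34.4 CPM in RANKL libraries, a log2 fold change of 1.85 ± 0.20 (edgeR adjusted p = 5.58e-05). Platelet and megakaryocyte genes summed to 6.55 to 7.80 CPM in controls and 149 to 749 CPM in RANKL libraries. Their sum was highest in replicate 2, which was also highest for Ptgs1. Ppbp made up most of it in RANKL libraries, at 142, 673 and 123 CPM. Pf4 and Gp1bb were also highest in replicate 2, whereas Itga2b was highest in replicate 3 and Gp9 lowest in replicate 2. Neutrophil, fibroblast, cornification and epithelial sums were highest in replicate 2 as well. The part of platelets and megakaryocytes in the Ptgs1 result was not tested.

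Ptgs2, the inducible enzyme of inflammation (chromosome 1, 150100031 to 150108234), had 15.8, 2.99 and 4.44 CPM in controls and 194, 154 and 212 CPM in RANKL libraries. Control replicate 1 stood several times above the other controls, yet far under any RANKL library. The log2 fold change was 4.60 ± 0.56 (edgeR adjusted p = 0.000127), or 5.62 without control replicate 1. The log2 ratio of Ptgs2 to Ptgs1 within a library was 0.27, -1.59 and -1.27 in controls and 2.29, 1.76 and 2.62 in RANKL libraries. The difference was 3.09 (exact permutation test, two-sided p = 0.1, the smallest possible).

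Promoter sequence was compared for the 7 members with a RefSeq promoter entry, in windows of 300 bases from 250 before to 50 after a transcript start that RefSeq lists (GRCm38.p6). For Plcb2, Ptgs1 and both listed starts of Dclk1 that start lies inside the span given for the gene. The 250 bases before the listed start are shown for Ptgs2, the member that rose most, and Plcb2, the member that fell; most of the Plcb2 stretch falls within the gene's span. Both held a match to the C/EBP motif TTGCNNAA (capitals), at bases -69 to -62 of Ptgs2 and -162 to -155 of Plcb2 counted from the start site, the Plcb2 match reading so on the opposite strand. They are written 5′ to 3′ on the gene's strand, at chr1:150099781-150100030 (plus strand) and chr2:118728439-118728688 (minus strand).
Ptgs2: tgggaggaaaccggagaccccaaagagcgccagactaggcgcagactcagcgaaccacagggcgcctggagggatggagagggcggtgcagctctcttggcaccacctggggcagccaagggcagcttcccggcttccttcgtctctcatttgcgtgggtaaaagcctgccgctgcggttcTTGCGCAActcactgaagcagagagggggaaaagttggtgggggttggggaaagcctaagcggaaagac
Plcb2: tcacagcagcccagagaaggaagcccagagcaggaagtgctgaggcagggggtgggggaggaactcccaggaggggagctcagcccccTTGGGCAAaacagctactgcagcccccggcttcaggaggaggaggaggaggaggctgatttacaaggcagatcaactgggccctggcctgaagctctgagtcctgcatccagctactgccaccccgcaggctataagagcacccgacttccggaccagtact

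The C/EBP motif occurred in 10.8% of 32851 promoter windows of the same length. Of the other motifs searched on both strands, the AP-1 motif TGANTCA was found in 1 member, Dclk1, with 2 matches at the second of its 2 listed starts (7.81% of all windows). The octamer ATGCAAAT (1.74%), TATAAA (13.6%) and the NF-kB consensus (8.46%) had no match in these members' windows. No match overlapped another. A match or its absence in these letters says nothing about binding in these samples.

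Downstream of the cyclooxygenases prostanoid genes moved in both directions. The share called higher, 34.8%, was close to the 33.8% of all tested genes. Of 24 listed genes 23 were tested; 8 were higher and 5 lower, 10 were not called, and the median was 0.20. Ptges, the inducible prostaglandin E synthase, had 12.6, 15.9 and 11.3 CPM in controls and 160, 157 and 125 CPM in RANKL libraries (3.47 ± 0.20, edgeR adjusted p = 4.08e-06). The other prostaglandin E synthases, Ptges2 and Ptges3, were not called, at -0.14 (95% interval -0.61 to 0.32) and -0.21 (-0.58 to 0.16). Synthases of prostaglandin D rose, Ptgds by 4.32 ± 0.42 and the haematopoietic Hpgds, also a tuft and mast cell gene, by 1.19 ± 0.27. The thromboxane synthase Tbxas1 rose by 2.15 ± 0.20. Ptgis, the prostacyclin synthase, was not called, at 0.83 (adjusted p = 0.0536), with overlapping groups.

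Genes of clearance and receptors also moved in both directions. Slco2a1, the prostaglandin transporter, rose by 2.04 ± 0.25, while Hpgd, the dehydrogenase that inactivates prostaglandins, fell by 0.94 ± 0.31 (edgeR adjusted p = 0.022). That call ended without control replicate 2 (0.0667) or control replicate 3 (0.0556), and with the term for the title number. Fam213b, a prostamide and prostaglandin F synthase, fell by 0.85 ± 0.21. Among receptors for prostaglandin E2, Ptger2 and Ptger3 rose by 1.67 ± 0.30 and 1.41 ± 0.21, whereas Ptger1 and Ptger4 fell by 1.07 ± 0.22 and 0.70 ± 0.19. Ptgdr, a receptor for prostaglandin D2, rose by 2.31 ± 0.57, or by 3.10 without control replicate 2. The other one, Ptgdr2, was not called, nor were Ptgir and Ptgfr.

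Tbxa2r, the thromboxane receptor, which cortical thymocytes carry, had 89.2, 72.7 and 96.3 CPM in controls and 3.98, 5.69 and 13.2 CPM in RANKL libraries. It fell by 3.49 ± 0.39 on the log2 scale (edgeR adjusted p = 6.38e-05), or by 4.11 without RANKL replicate 3. Its order among RANKL libraries was that of the thymocyte sum and of Plcb2. Among controls Tbxa2r was lowest in replicate 2, where the thymocyte sum was also lowest and Plcb2 was highest. Tbxa2r was highest in replicate 3, whereas the thymocyte sum was highest in replicate 1. The part of thymocytes in the Tbxa2r result was not tested.

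Genes that release or handle arachidonic acid upstream of both branches were mostly higher. Of 24 listed phospholipases and related enzymes 21 were tested, with 14 higher, 4 lower and 3 not called. The median was 0.99, and over all tested genes 33.8% were higher and 29.6% lower. Besides Pla2g4a, the smallest p-values among these were for Pla2g7, the platelet-activating factor hydrolase of macrophages, which rose by 3.24 ± 0.17, and the skin phospholipases Pla2g4e and Pla2g2f, which rose by 4.84 ± 0.36 and 4.95 ± 0.45. Pla2g2e rose by 6.02 ± 0.61, or by 5.35 without RANKL replicate 2, and Pla2g3 by 3.85 ± 0.44. Those that fell were Pla2g2d (-1.01), Pla2g12a (-0.98), Pla2g6 (-0.72) and Faah (-0.84), the last a fatty acid amide hydrolase.

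**Figure D4:**
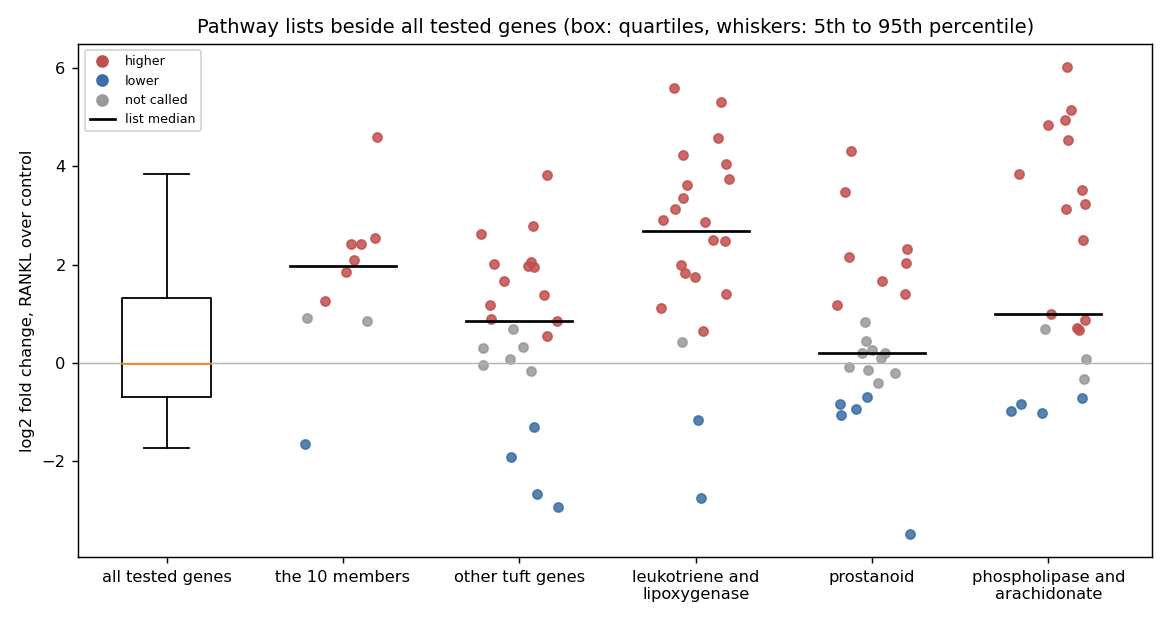
Log2 fold changes of the tested genes of each list (points, coloured by call) with list medians (black), beside a box for all 16096 tested genes. The leukotriene and lipoxygenase genes have a median of 2.69 and the prostanoid genes 0.20, against -0.02 over all tested genes.

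Per length, the order of the members changed between the groups. Mean CPM per kilobase of exon (GENCODE M21) in controls was 16.4 for Plcb2, 10.9 for Alox5ap, 3.49 for Ltc4s, 2.84 for Ptgs1, 1.69 for Ptgs2 and 1.00 for Alox5. It was 0.746 for Dclk1, 0.620 for Pou2f3, 0.486 for Gnb3 and 0.420 for Trpm5. Among neighbours in this control order only Alox5ap and Ltc4s did not overlap between libraries. In RANKL libraries Alox5ap led with 57.8, followed by Ptgs2 with 40.8, Ltc4s with 18.6, Ptgs1 with 10.2, Alox5 with 5.87 and Plcb2 with 5.20. Pou2f3 followed with 2.66, Dclk1 with 1.78, Gnb3 with 0.919 and Trpm5 with 0.758. There the pairs Alox5ap and Ptgs2, Alox5 and Plcb2, Dclk1 and Gnb3, and Gnb3 and Trpm5 overlapped. Gnb3 and Trpm5 thus stayed at the low end of both orders.

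The genes whose log2 CPM over the 6 libraries was most like that of Pou2f3 were Numb, Rtn2 and Fam115a, with Pearson r of 0.995 to 0.998. For Trpm5 they were Scn4a, Pcdh15 and Col6a6 (0.992 to 0.998), and for Ptgs2 Nos2, Serpina9 and Unc93a (0.998 to 0.9995). These r values mostly restate the gap between the groups, and r was over 0.9 for 2590 genes with Pou2f3, 654 with Trpm5 and 2758 with Ptgs2 out of 12848 compared.

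**Figure D5:**
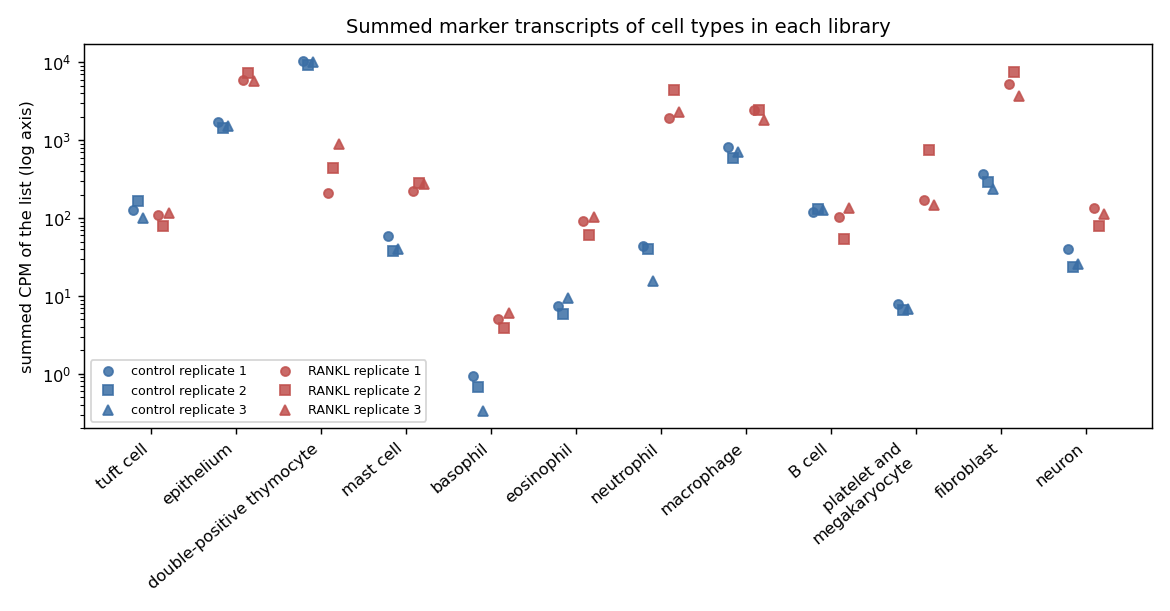
Summed CPM (log axis) of marker genes of each cell type in each library. Double-positive thymocyte sums are lower in all RANKL libraries, and the tuft and B cell sums overlap between groups. Sums of epithelium, mast cells, basophils, eosinophils, neutrophils, macrophages, platelets, fibroblasts and neurons are higher in all RANKL libraries. In RANKL libraries the neuron sum is mostly Syt1 (mean 90.1 CPM, against 8.72 CPM in controls). Of the other tested neuron genes Stmn2 rose, Elavl4 fell, and Tubb3 and Nefl were not called.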

How the data were processed

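Total RNA of whole thymus was extracted with TRIzol and a column kit and made into stranded mRNA libraries, per the labels' protocols. The authors deposited raw counts per gene for each library. STAR and the mm10 genome are named in the submitters' processing notes; no source used here gives their versions, the counter, its use of strand or the gene models. Groups came from the genotype label, and replicate numbers follow accession order only and pair no samples.

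Genes passing filterByExpr were scaled by TMM and tested with the robust quasi-likelihood test of edgeR 4.0.16 (R 4.3.3), two-sided, with Benjamini-Hochberg adjustment over 16096 genes and a threshold of 0.05. SEs were derived from the F statistic. The code was tested on simulated data. Counts of libraries of 1 group differed far beyond sampling noise (chi-square over its degrees of freedom 31.7 to 67.9). Alternatives were other scalings, filters and thresholds, a term for the range of the title number, DESeq2 1.42.0, limma-voom (limma 3.58.1) and leaving out each library; list counts and named list genes were added to them after seeing the data.

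The members and lists were chosen with earlier results of these data known. Named genes were the 10 members, up to 6 called genes of each list with the smallest p, all genes of a list that moved one way where these were 8 or fewer, a fixed set of taste, synthase, receptor and epithelial genes, and the 3 genes most like Pou2f3, Trpm5 and Ptgs2; others were named after their values were seen, and 1 gene that the rule names is not reported here. Of the listed genes, Sh2d6, Siglecf, Calhm3, Ly6g and Adgre1 were not analysed here. Coordinates are RefSeq's for GRCm38, and exon lengths and overlaps are GENCODE M21's. Promoters are RefSeq's; Pou2f3, Gnb3 and Alox5ap had no entry. Figures used matplotlib 3.10.9.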

Additional observations from a re-analysis of the deposited data

How the results depend on the processing

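Under all 17 alternatives to the fit, 7 to 9 members were called higher and Plcb2 alone lower, and no member's log2 fold change changed sign. The 8 called members stayed called in each; Gnb3 was called in 3 and Trpm5 in 8. Over all tested genes between 4407 and 5955 were higher, and leaving out single libraries gave 5149 to 5549 higher and 3902 to 4624 lower; the lower count was 2654 under a test against a 1.5-fold change. That test left 2 prostanoid genes and 1 of the phospholipase and arachidonate list lower, and an adjusted p under 0.01 left 3 and 2. The share of calls that were higher was 53.3% and rose to 58.3% with upper-quartile factors, which moved the median of all tested genes from -0.02 to 0.08; without a filter that median was 0.11. No member changed direction under either. Krt8 in place of Epcam turned the ratio difference to 1.62 for Pou2f3, 0.67 for Dclk1, 0.31 for Gnb3 and 0.31 for Trpm5; the cause was not tested. Il25 and the Tas2r genes did not pass the filter on low counts. Gnb3 had 23 to 62 reads per library and Trpm5 44 to 109. The part of read depth in their results was not tested.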
